A study of Mus musculus with 6 samples.

Results

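Interferon regulators and interferon-stimulated genes were followed in cultured bone cells under inflammatory stimulation, as a group of 48 genes. The genes were named by hand, as transcription factors and receptors of the interferon pathway and genes that interferon is known to induce, and were looked up by symbol in the deposited table of gene counts. All 48 are among the 56748 genes listed there, and 47 of them are among the 17146 genes with enough counts for testing. The gene left out was *Irf4*, a transcription factor of lymphoid and myeloid cells, with 0, 0 and 0 counts in WT and 2, 2 and 2 counts in the other group.

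RNA was sequenced from 6 cultures of primary cells labelled osteocytes, released from flushed long bones by trypsin, collagenase and EDTA and cultured for 7 days. The WT libraries, 3 in number, came from mice that the methods name as C57BL/6J for this stimulation, and the 3 labelled cKO came from mice with floxed *Gsdmd* alleles and a DMP1-Cre transgene, which deletes in cells that have switched on the *Dmp1* promoter. For the isolation of primary osteocytes the methods give donors of 7 weeks, there named C57BL/6. All 6 cultures had received lipopolysaccharide (LPS) at 10 ng/mL for 3 h and then aluminum hydroxide at 20 µg/mL for 3 h, so no value compares stimulated with resting cells. The comparison asks how stimulated cells of the labelled genotypes differ. Neither the labels nor the methods say how many mice stand behind a library, and the p-values measure the spread between these libraries. The total counts were 45128793, 49734046 and 39590527 in WT and 41645500, 39566835 and 45161392 in the libraries labelled cKO. Levels are given as counts per 1000000 (CPM) after scaling by edgeR's TMM factors. A gene was said to rise or fall in the libraries labelled cKO when its p-value in the quasi-likelihood test of edgeR, adjusted over the 17146 genes by the Benjamini-Hochberg method, was below 0.05.

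The deleted gene went against the label. *Gsdmd* stood at 13.5, 14.1 and 14.1 CPM in WT and at 21.0, 23.6 and 23.0 CPM in the libraries labelled cKO, a log2 fold change of 0.69 with a standard error of 0.08 (edgeR, adjusted p = 2.27e-06). The 3 libraries labelled cKO lay above the 3 WT libraries for the gene that the label says was deleted. Counts summed over a whole gene do not show whether the floxed exons are missing from the transcript, so the genotype of these libraries was not checked by the table. They are called the libraries labelled cKO throughout, and every direction rests on that label.

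The groups also differed in the sex of the donors. *Xist*, the RNA that silences an X chromosome in female cells, had 4, 0 and 2 counts in WT and 48762, 44817 and 51216 counts in the libraries labelled cKO. *Ddx3y*, on the Y chromosome, had 4785, 5455 and 4033 counts in WT and 0 counts in each library labelled cKO. Sex and labelled genotype cannot be told apart in any of these values.

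The markers were also checked against the cell type label. Of 12 osteocyte markers, *Sost* and *Dkk1* had 0 counts in every library, *Mepe* had at most 2, and *Dmp1*, the gene whose promoter drives the Cre, had 0, 0 and 4 counts in WT and 2, 6 and 4 in the libraries labelled cKO. *Phex* had 2 to 22 counts and *Fgf23* 0 to 34. The most abundant gene of that list per kilobase was *Pdpn* in WT and *Capg* in the other group, and the summed level of the list was 1401, 1428 and 1512 CPM in WT and 1604, 1583 and 1563 CPM in the other group. The defining markers of mature osteocytes were thus at or near 0 in all 6 libraries. The methods name immunofluorescence with a DMP1 antibody as the basis for calling the cells osteocytes.

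Markers of macrophages and monocytes moved with the labelled genotype. Of the 19 listed, 17 were tested, and all 17 were at least 2-fold higher in the libraries labelled cKO, with a median log2 fold change of 2.99. Of all tested genes, 6.56% rose at least 2-fold. Their summed level was 1273, 1381 and 1444 CPM in WT and 6805, 7073 and 7127 CPM in the libraries labelled cKO. The most abundant was *Lyz2*, at 921, 1006 and 1030 CPM in WT and 4391, 4550 and 4613 CPM in the other group. *Ly6c2*, a marker of inflammatory monocytes, had at most 3 counts in any library, and *Ccr2* had at most 15. The part of these cells in the interferon genes was not tested. In bulk RNA, more cells of a type and more RNA per cell cannot be told apart, and this holds for each interferon gene.

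Interferons are secreted proteins through which a cell that has sensed viral or bacterial material warns itself and its neighbours. Type I interferons bind the receptor of *Ifnar1* and *Ifnar2* chains, and interferon gamma binds that of *Ifngr1* and *Ifngr2*, and both receptors work through Janus kinases and Stat proteins that enter the nucleus with *Irf9* or alone and switch on interferon-stimulated genes. In bone, interferons are known to restrain the formation of osteoclasts, and LPS is a classical trigger of the pathway in macrophages.

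The interferon genes were mostly higher in the libraries labelled cKO. Of the 47 tested, 32 rose, or 68.1%, against 20.1% of all tested genes, and 2 fell, or 4.26%, against 19.2% of all tested genes. The genes that fell were *Irf1* and *Ifngr2*. Of the rises, 14 were at least 2-fold, or 29.8%, against 6.56% of all tested genes, while 0 falls were at least 2-fold, against 4.64% of all tested genes, and this 0 holds at any p-value and also with DESeq2 and limma-voom. In 27 of the 47 every library labelled cKO lay above every WT library, against 25.3% of all tested genes, and in 2 every one lay below, against 23.9%. The other 18 overlapped between the groups, among them all 13 genes that neither rose nor fell. The median log2 fold change of the 47 was 0.52, with quartiles of 0.25 and 1.13 and a range from -0.41 to 3.25, and the median of all tested genes was 0.01, with quartiles of -0.22 and 0.27. The summed level of the members was 900, 993 and 995 CPM in WT and 1420, 1358 and 1269 CPM in the libraries labelled cKO. A gene could enter the test when the libraries of 1 group alone all reached the level of the filter, and such a gene is more likely to differ. This was so for *Mx1* and *Oasl1*, and of the 45 members that reached the level of the filter in every library, 31 rose, or 68.9%, against 21% of the 15054 such genes among all tested, and 13 rose at least 2-fold, or 28.9%, against 5.55%. Without WT 1 the count of members that rose was 26, and 9 of these rose at least 2-fold.

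**Figure D1:**
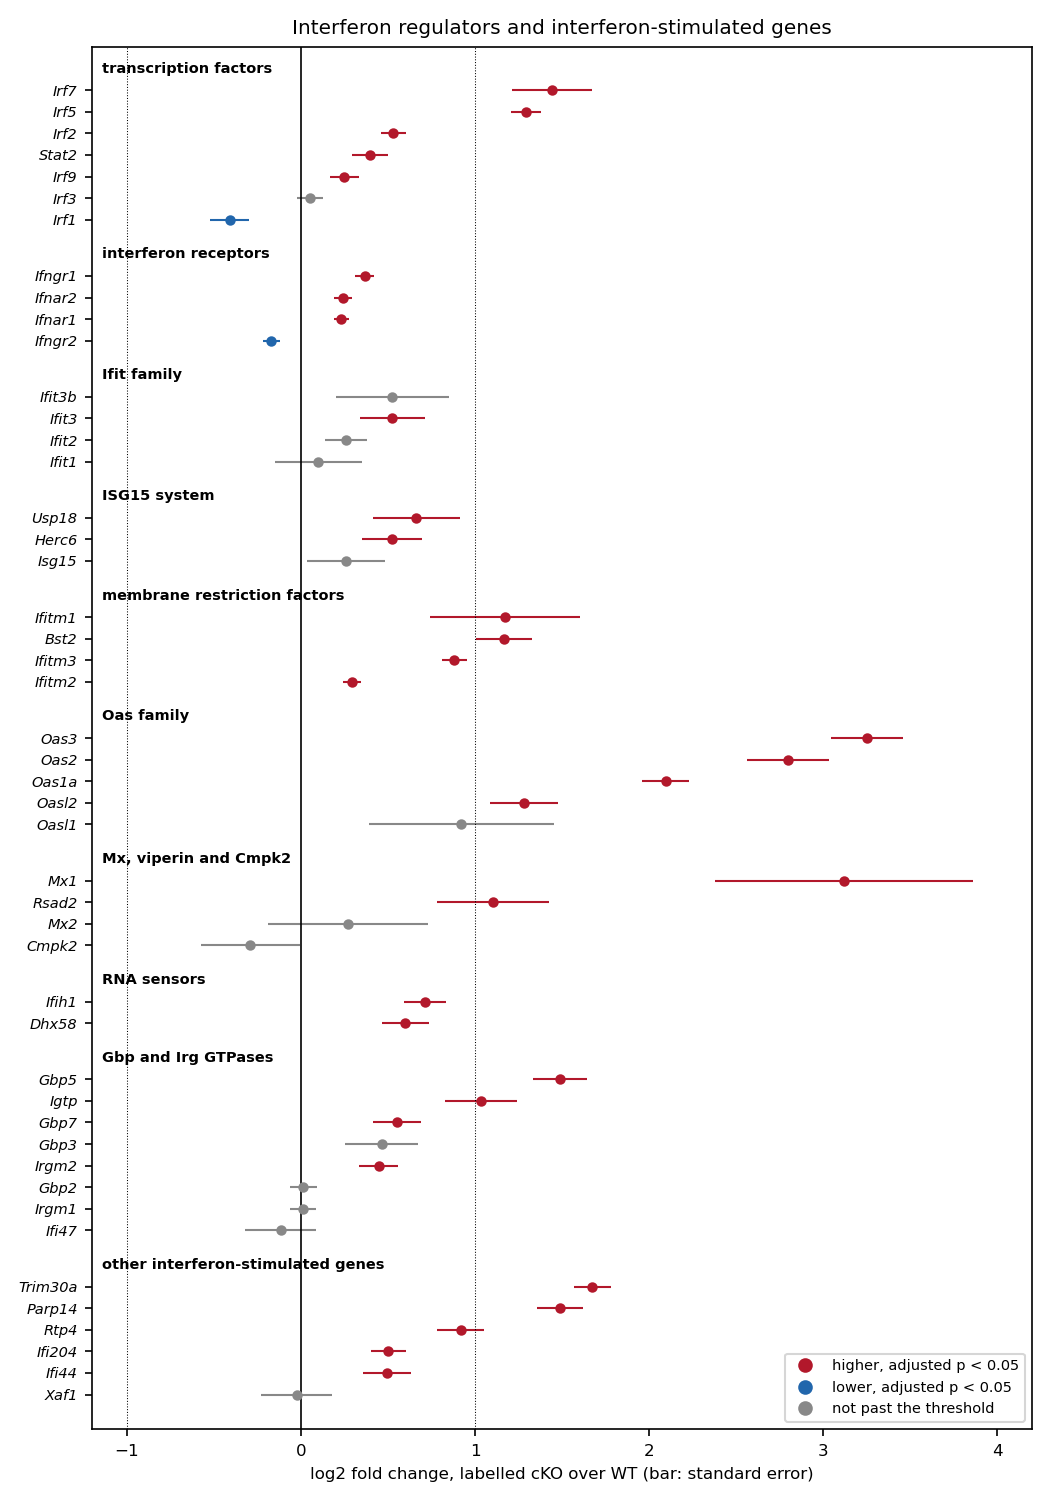
Log2 fold change (horizontal axis, libraries labelled cKO over WT) of the 47 tested interferon genes, grouped by role, with bars of 1 standard error (edgeR, 3 libraries per group). Dotted lines mark 2-fold; the Oas genes reach 3.25, and the only genes below 0 that passed the test are Irf1 and Ifngr2.

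Interferon transcripts were at or near 0. Of 21 interferon ligand genes, 19 had 0 counts in every library, among them *Ifnb1*, all listed Ifna genes and *Ifng*. *Ifne* reached at most 4 counts and *Ifnz* at most 24, in WT 2. A count of 0 allows up to 3 counts (counting error only), or 6 if the mates of a pair were counted as separate reads, so a lower level was not detectable at this depth. Earlier times of the stimulation were not analysed here.

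The genes upstream of interferon were present and partly higher. Of 18 tested genes of interferon induction (pattern receptors, adaptors and kinases), 10 rose, 2 fell and 6 did neither, where 20.1% of all tested genes rose and 19.2% fell, and the median log2 fold change was 0.33. One of the 10, *Tlr9*, entered the test through the libraries labelled cKO alone, and without it the median was 0.21. *Tlr7*, an endosomal receptor for single-stranded RNA, stood at 6.42, 6.31 and 5.95 CPM in WT and at 39.8, 40.5 and 44.7 CPM in the libraries labelled cKO, a log2 fold change of 2.74 (SE 0.08; edgeR, adjusted p = 2.21e-14). *Trim25*, a ubiquitin ligase that activates the RNA sensor RIG-I, stood at 40.4, 47.8 and 46.7 CPM against 98.0, 94.4 and 96.9 CPM (log2 fold change 1.10, SE 0.06; edgeR, adjusted p = 7.27e-11). Neither gene overlapped between the groups. *Tlr7* lies on the X chromosome, and the groups differed in the sex of the donors. *Tlr4*, the LPS receptor, was at 63.1, 65.0 and 63.6 CPM in WT and 84.2, 86.0 and 91.6 CPM in the other group (log2 fold change 0.45, SE 0.05; edgeR, adjusted p = 8.62e-07). The adaptors went in different directions. *Ticam2*, the partner of *Ticam1* behind *Tlr4*, rose by 1.84 (SE 0.24; edgeR, adjusted p = 8.2e-06), and *Mavs* overlapped at 0.09 (SE 0.06). *Ticam1*, the adaptor of *Tlr3* and *Tlr4* on the way to interferon beta, was at 28.1, 26.2 and 30.2 CPM in WT and 21.7, 24.0 and 21.5 CPM in the other group (log2 fold change -0.33, SE 0.08; edgeR, adjusted p = 0.00249). *Sting1*, the adaptor of cytosolic DNA sensing, was at 25.8, 27.2 and 25 CPM against 24.7, 19.8 and 22.1 CPM (log2 fold change -0.23, SE 0.08; edgeR, adjusted p = 0.0396). The fall of *Sting1* no longer passed with library size as the only scaling, where it was -0.21, nor without WT 1 (-0.25), WT 2 (-0.20), cKO 2 (-0.15) or cKO 3 (-0.22). Over its alternatives the adjusted p of *Sting1* ranged up to 0.2, in the fit without cKO 2.

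The receptor chains were abundant and moved little. *Ifnar1*, a chain of the type I receptor, was at 109, 104 and 104 CPM in WT and 124, 123 and 124 CPM in the libraries labelled cKO, a log2 fold change of 0.23 (SE 0.04; edgeR, adjusted p = 0.000383). Its partner *Ifnar2* was at 55.0, 56.5 and 59.4 CPM in WT and 64.1, 68.4 and 69.4 CPM in the other group (log2 fold change 0.24, SE 0.05; edgeR, adjusted p = 0.00122). Both rose without overlap. *Ifngr1*, which binds interferon gamma, was at 56.8, 63.6 and 63.7 CPM in WT against 79.1, 76.8 and 81.3 CPM (log2 fold change 0.36, SE 0.05; edgeR, adjusted p = 3.1e-05). *Ifngr2*, the signalling chain of the same receptor, was at 81.8, 77.7 and 79.2 CPM in WT against 69.1, 71.6 and 71.4 CPM, and fell (log2 fold change -0.17, SE 0.05; edgeR, adjusted p = 0.00823). The chains of the interferon gamma receptor thus moved in opposite directions, each without overlap between the groups. Per kilobase of gene length the 4 chains lay within 18.7 to 24.7 CPM, above the median of 3.19 CPM per kilobase for the 47 tested members and of 3.47 for all tested genes.

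Of 17 tested genes that relay the receptor signal, 8 rose, or 47.1%, against 20.1% of all tested genes, 3 fell, or 17.6%, against 19.2%, and 6 did neither, and their median log2 fold change was 0.25. The share that fell was thus near that of all tested genes. The kinases *Jak1* and *Jak2* both fell, while *Tyk2* rose. *Jak1*, used by both receptors, was at 467, 464 and 474 CPM in WT and 358, 357 and 358 CPM in the libraries labelled cKO (log2 fold change -0.39, SE 0.04; edgeR, adjusted p = 7.45e-08), and *Jak2*, used by the interferon gamma receptor, was at 86.8, 92.7 and 94.3 CPM against 63.3, 63.8 and 65.4 CPM (log2 fold change -0.51, SE 0.05; edgeR, adjusted p = 1.82e-07). *Ptpn11*, the phosphatase SHP2, fell from 285, 281 and 303 CPM to 229, 235 and 235 CPM (log2 fold change -0.31, SE 0.04; edgeR, adjusted p = 7.94e-06). In these 3 genes that fell the groups did not overlap. *Ptpn6*, the phosphatase SHP1 of blood cells, had the largest fold change of this list, from 3.09, 2.72 and 4.20 CPM to 27.9, 32.5 and 32.6 CPM (log2 fold change 3.23, SE 0.13; edgeR, adjusted p = 1.15e-12). *Il10rb*, a receptor chain shared by lambda interferons and interleukin 10, rose by 0.94 on the log2 scale (SE 0.06; edgeR, adjusted p = 1.34e-09), from 25.1, 25.1 and 24.7 CPM to 48.5, 50.6 and 44.9 CPM. *Socs3*, a feedback inhibitor of cytokine receptors, rose by 0.43 (SE 0.04; edgeR, adjusted p = 3.37e-07), from 105, 107 and 110 CPM to 142, 149 and 144 CPM.

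Of the 7 tested transcription factors, 5 rose, or 71.4%, against 20.1% of all tested genes. The 1 that fell, or 14.3%, is near the 19.2% of all tested genes, and *Irf3* did neither. *Irf5*, which acts behind Toll-like receptors in myeloid cells, stood at 8.33, 8.75 and 9.09 CPM in WT and at 21.0, 21.4 and 21.7 CPM in the libraries labelled cKO, a log2 fold change of 1.29 (SE 0.09; edgeR, adjusted p = 1.73e-09). Within each group its libraries lay close together, and the groups were far apart. *Irf2*, which competes with *Irf1* for the same DNA element, was at 19.5, 22.0 and 20.3 CPM in WT and 30.2, 30.2 and 28.9 CPM in the other group (log2 fold change 0.53, SE 0.07; edgeR, adjusted p = 1.23e-05). *Irf7*, the factor that amplifies type I interferon and is itself induced by it, was at 5.93, 14.2 and 12.2 CPM in WT and 37.7, 30.0 and 20.3 CPM in the libraries labelled cKO (log2 fold change 1.44, SE 0.23; edgeR, adjusted p = 6.85e-05). The groups did not overlap, although WT 1 lay well under the other WT libraries and cKO 1 well over cKO 3. With robust estimation of the dispersion *Irf7* no longer passed, at the same log2 fold change of 1.44.

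*Irf1*, an early response gene of interferon gamma, fell. Per kilobase it was the most abundant of these factors in WT, while *Irf7*, *Irf3* and *Irf5* lay above it in the libraries labelled cKO. It was at 46.5, 37.4 and 29.8 CPM in WT and at 28.6, 29.5 and 27.7 CPM in the libraries labelled cKO (log2 fold change -0.41, SE 0.11; edgeR, adjusted p = 0.00636). WT 3 lay close to the libraries labelled cKO, at 29.8 CPM against their highest of 29.5 CPM, and WT 1 was the farthest above them. Without WT 1 the log2 fold change was -0.25. With robust estimation *Irf1* no longer passed, at an unchanged log2 fold change of -0.41. *Irf3*, the factor that sensors activate by phosphorylation, was at 25.9, 23.3 and 26.0 CPM in WT and 26.9, 26.8 and 24.3 CPM in the other group, which overlapped (log2 fold change 0.05, SE 0.08; edgeR, adjusted p = 0.644). *Stat2* and *Irf9*, which act together in the response to type I interferon, rose by 0.40 (SE 0.10; edgeR, adjusted p = 0.00475) and 0.25 (SE 0.08; edgeR, adjusted p = 0.026). For *Stat2* the groups did not overlap, with 24.6, 30.1 and 36.0 CPM against 43.1, 39.1 and 36.9 CPM, and the value was 0.25 without WT 1. *Irf9* overlapped, with 22.0, 23.5 and 27.0 CPM against 29.8, 29.9 and 26.4 CPM, and did not pass with upper quartile scaling or without WT 1 (0.17), WT 2 (0.22), cKO 1 (0.22) or cKO 2 (0.22).

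Of 4 tested related genes outside the group, *Irf8* and *Irf2bp2* rose, where 20.1% of all tested genes rose. *Irf8*, a factor of monocytes and dendritic cells, stood at 3.31, 3.55 and 3.58 CPM in WT and at 23.0, 22.8 and 23.0 CPM in the libraries labelled cKO (log2 fold change 2.72, SE 0.10; edgeR, adjusted p = 3.65e-13). Its change was larger than that of any member factor. *Irf2bp2*, a partner of *Irf2*, was at 167, 133 and 132 CPM in WT and 184, 189 and 188 CPM in the other group (log2 fold change 0.38, SE 0.07; edgeR, adjusted p = 0.000205).

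**Figure D2:**
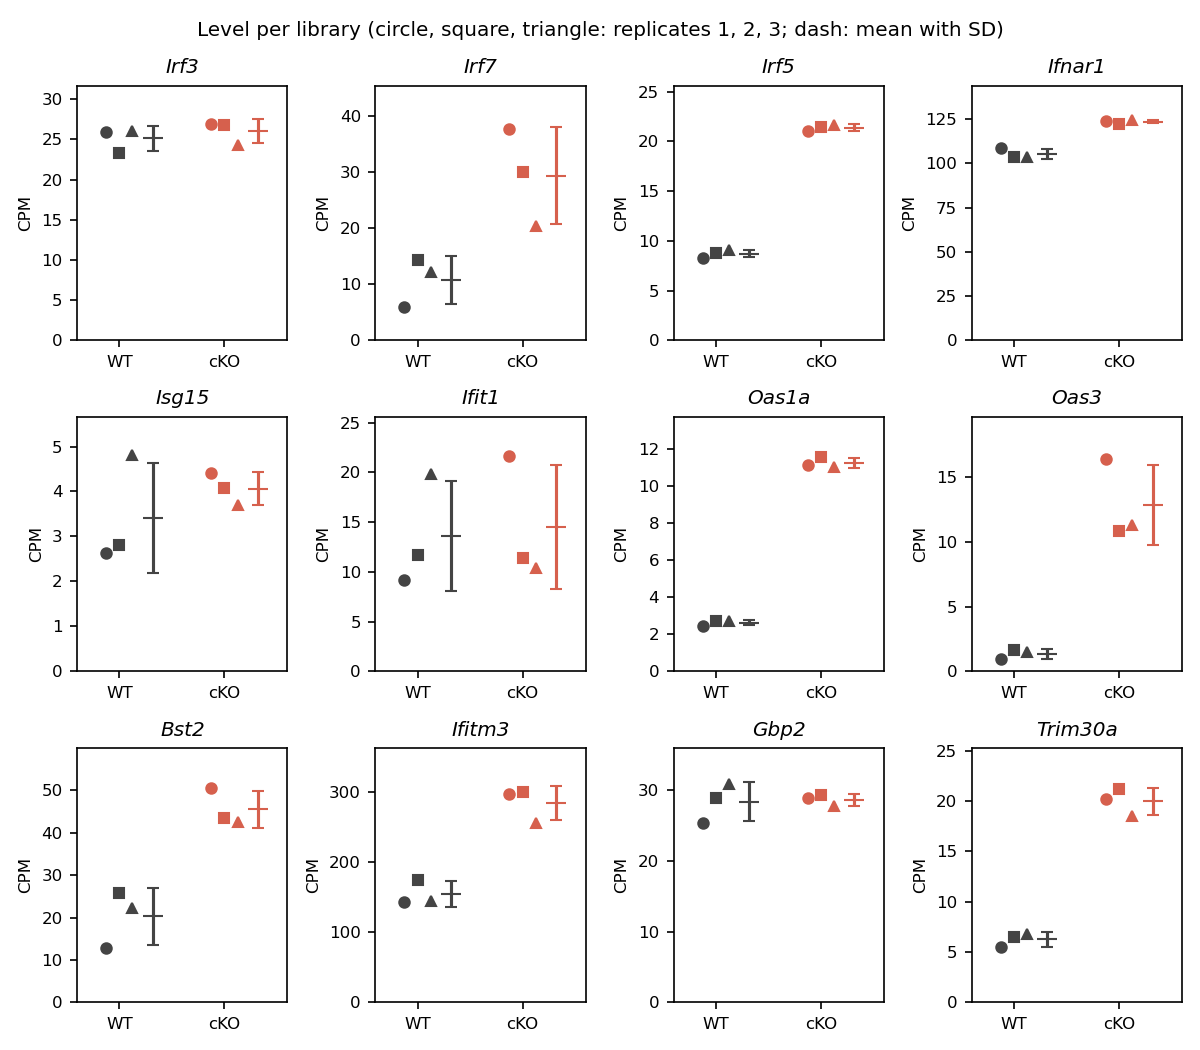
Level in CPM (vertical axis, from 0) of 12 of the interferon genes in each library, WT at the left and labelled cKO at the right of each panel, with the mean and SD beside them (n = 3). Irf5, Oas1a and Oas3 are apart in every library, while Irf3, Isg15, Ifit1 and Gbp2 overlap between the groups.

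*Oas3*, *Oas2* and *Oas1a* were among the 4 members with the largest fitted fold changes, beside *Mx1*. The Oas family includes enzymes that bind viral RNA and make the oligoadenylates that switch on RNase L. Of the 5 members 4 rose, all at least 2-fold, and the median of the 5 was 2.10 on the log2 scale. Of all tested genes, 20.1% rose and 6.56% rose at least 2-fold. Of the 3 tested Oas genes outside the group, *Oas1b* (0.09, SE 0.30) and *Oas1c* (0.37, SE 0.25) did not pass, and *Oas1g* rose but entered the test through the libraries labelled cKO alone. *Oas1a*, the most abundant of them per kilobase, was at 2.47, 2.70 and 2.73 CPM in WT and 11.2, 11.6 and 11.1 CPM in the libraries labelled cKO (log2 fold change 2.10, SE 0.13; edgeR, adjusted p = 6.65e-10). *Oas3* was at 0.933, 1.63 and 1.47 CPM in WT and 16.4, 10.9 and 11.3 CPM in the other group (log2 fold change 3.25, SE 0.21; edgeR, adjusted p = 6.73e-10). In both genes the lowest library labelled cKO lay several-fold over the highest WT library. *Oas2* rose by 2.80 (mean 1.06 ± 0.422 CPM in WT and 7.52 ± 1.02 CPM in the other group, SD, n = 3), and *Oasl2* by 1.28 (4.97 ± 1.78 and 12.0 ± 0.952 CPM). *Oasl1* stayed under 1 CPM in every library and overlapped, with a log2 fold change of 0.92 and a standard error of 0.53.

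Both RNA sensors rose without overlap. Of all tested genes, 20.1% rose, and in 25.3% every library labelled cKO lay above every WT library. *Ifih1*, the sensor MDA5 of long viral RNA, was at 8.71, 11.1 and 10.9 CPM in WT and 19.4, 16.2 and 14.7 CPM in the libraries labelled cKO (log2 fold change 0.71, SE 0.12; edgeR, adjusted p = 0.000122). *Dhx58*, its regulator LGP2, was at 5.47, 5.62 and 7.27 CPM in WT and 9.58, 9.41 and 8.76 CPM in the other group (log2 fold change 0.60, SE 0.14; edgeR, adjusted p = 0.00181). Their relative *Ddx58*, the sensor RIG-I, overlapped between the groups at a log2 fold change of 0.07 (SE 0.07).

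All 4 membrane restriction factors rose, against 20.1% of all tested genes, with a median log2 fold change of 1.02. *Ifitm3*, which hinders the fusion of viruses with endosomes, was the most abundant member per kilobase at 323 CPM. It stood at 142, 175 and 145 CPM in WT and at 296, 299 and 256 CPM in the libraries labelled cKO (log2 fold change 0.88, SE 0.07; edgeR, adjusted p = 1.49e-08). *Bst2*, tetherin, which holds budding virus at the cell surface, was at 12.8, 25.9 and 22.2 CPM in WT and 50.6, 43.5 and 42.6 CPM in the other group (log2 fold change 1.17, SE 0.16; edgeR, adjusted p = 1.22e-05). The libraries of both genes were apart, with WT 1 lowest for *Bst2*. *Ifitm2* rose by 0.29 from a mean of 94.9 ± 5.11 to 116 ± 4.97 CPM (SD, n = 3). *Ifitm1* was far less abundant, at 0.521 ± 0.13 and 1.18 ± 0.524 CPM, and cKO 2 lay inside the WT range. Its rise of 1.17 did not pass with limma-voom, upper quartile scaling or the replicate number as a term (1.10), nor without WT 1 (1.17), WT 3 (1.00), cKO 1 (0.97) or cKO 3 (0.98).

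The ISG15 system and the Ifit family are among the most used readouts of type I interferon. Of their 7 genes 3 rose, where 20.1% of all tested genes rose. *Isg15* itself, a ubiquitin-like protein, was at 2.62, 2.80 and 4.82 CPM in WT and 4.42, 4.07 and 3.70 CPM in the libraries labelled cKO (log2 fold change 0.26, SE 0.22; edgeR, adjusted p = 0.4). WT 3 was the highest of all 6 libraries, and without it the log2 fold change was 0.58 and passed. It was 0.09 without WT 1 and 0.12 without WT 2, and passed in neither fit. *Usp18*, which removes *Isg15* and blocks *Ifnar2*, was at 2.35, 2.40 and 4.25 CPM against 6.39, 3.92 and 3.85 CPM (log2 fold change 0.66, SE 0.25; edgeR, adjusted p = 0.0455). *Herc6*, the ligase for *Isg15* in the mouse, was at 5.27, 4.05 and 5.00 CPM against 8.58, 5.78 and 6.19 CPM (log2 fold change 0.52, SE 0.17; edgeR, adjusted p = 0.0226). *Usp18* overlapped between the groups and *Herc6* did not, and cKO 1 was the highest library of both. *Usp18* did not pass with RLE or upper quartile scaling or with the replicate number as a term (0.66), nor without WT 1 (0.50), WT 2 (0.51) or cKO 1 (0.38), and *Herc6* did not pass without WT 2 (0.41) or cKO 1 (0.33).

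In the Ifit family, whose proteins bind foreign RNA, 1 of 4 rose, or 25%, near the 20.1% of all tested genes that rose. All 4 overlapped between the groups. Of all tested genes, 25.3% had every library labelled cKO above every WT library and 23.9% every one below. *Ifit1*, the most abundant per kilobase, was at 9.20, 11.7 and 19.8 CPM in WT and 21.7, 11.4 and 10.4 CPM in the libraries labelled cKO (log2 fold change 0.10, SE 0.25; edgeR, adjusted p = 0.798). *Ifit3* was at 6.11, 5.30 and 8.32 CPM against 12.2, 8.93 and 7.20 CPM (log2 fold change 0.52, SE 0.19; edgeR, adjusted p = 0.0335). Within their groups, WT 3 and cKO 1 were the highest libraries of both genes. *Ifit3* did not pass with upper quartile scaling, with robust estimation, or without WT 1 (0.46), WT 2 (0.38), cKO 1 (0.30) or cKO 2 (0.56). *Ifit2* and *Ifit3b* had log2 fold changes of 0.26 (SE 0.12) and 0.53 (SE 0.33) and did not pass, although *Ifit2* passed at 0.36 without cKO 3. *Ifit3* and *Ifit3b* are close copies that can share reads, so their separate values are uncertain.

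Of the 4 genes *Mx1*, *Mx2*, *Rsad2* and *Cmpk2*, 2 rose, where 20.1% of all tested genes rose. Of the 3 that reached the level of the filter in every library, 1 rose. *Mx1*, a GTPase that traps viral nucleocapsids, had 1, 2 and 2 counts in WT and 14, 18 and 12 counts in the libraries labelled cKO. It entered the test only through the libraries in which it was higher, so its call supports nothing by itself. The ratio of its levels was 9.23, with a 95% interval of 3.67 to 29.8 (counting error only). Of the counts from 1 to 10 in a library, 63.4% to 65.7% were even numbers, a pattern seen when the mates of a pair are counted as separate reads, and with every count halved the interval was 2.54 to 59.4. The median of the 47 members was 0.52 with *Mx1* at the low end of this interval. *Rsad2*, viperin, was at 1.31, 0.987 and 2.99 CPM in WT and 4.44, 2.89 and 3.85 CPM in the other group (log2 fold change 1.10, SE 0.32; edgeR, adjusted p = 0.0111). Its groups overlapped at WT 3, and the value was 1.70 without that library, while without WT 1 (0.91), WT 2 (0.80) or cKO 1 (0.96) it did not pass. *Mx2* and the nucleotide kinase *Cmpk2*, which lies beside *Rsad2*, had log2 fold changes of 0.27 (SE 0.46) and -0.29 (SE 0.29) and overlapped.

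Of the 8 GTPases induced mainly by interferon gamma, 4 rose, or 50%, against 20.1% of all tested genes. Of the 8, 0 fell, against 19.2% of all tested genes. *Gbp2*, the most abundant of them per kilobase, was at 25.4, 28.8 and 30.9 CPM in WT and 28.9, 29.3 and 27.7 CPM in the libraries labelled cKO (log2 fold change 0.01, SE 0.08; edgeR, adjusted p = 0.91). *Gbp5*, which promotes inflammasome assembly, was at 2.87, 2.76 and 2.78 CPM in WT and 8.77, 6.92 and 7.92 CPM in the other group (log2 fold change 1.49, SE 0.16; edgeR, adjusted p = 4.62e-07). *Gbp2* overlapped, and *Gbp5* was apart in every library. *Igtp*, also called Irgm3, was at 2.95, 2.50 and 4.35 CPM in WT and 7.56, 7.22 and 5.24 CPM in the other group (log2 fold change 1.04, SE 0.21; edgeR, adjusted p = 0.000584). *Gbp7* and *Irgm2* rose by 0.55 (SE 0.14) and 0.45 (SE 0.11), both without overlap. *Irgm1*, at a mean of 36.1 ± 2.56 CPM in WT and 36.3 ± 3.32 CPM in the other group (SD, n = 3), had a log2 fold change of 0.01 (SE 0.07), and *Ifi47* one of -0.12 (SE 0.20). *Gbp3*, at 0.46 (SE 0.21), did not pass, although it passed without WT 3 (0.62) and when genes with at least 1 count were tested.

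Of 6 further interferon-stimulated genes, 5 rose, or 83.3%, against 20.1% of all tested genes. *Trim30a*, which restrains signalling behind Toll-like receptors, was at 5.47, 6.47 and 6.83 CPM in WT and 20.2, 21.1 and 18.5 CPM in the libraries labelled cKO (log2 fold change 1.67, SE 0.11; edgeR, adjusted p = 7.61e-10). *Parp14*, an ADP-ribosyltransferase, was at 8.58, 11.2 and 15.0 CPM in WT and 32.6, 32.5 and 31.9 CPM in the other group (log2 fold change 1.49, SE 0.13; edgeR, adjusted p = 5.48e-08). The WT libraries of *Parp14* were spread and those labelled cKO were nearly equal, and neither gene overlapped. *Rtp4*, the most abundant of the 6 per kilobase in the libraries labelled cKO but below *Ifi204* in WT, was at 5.60, 5.96 and 7.55 CPM against 13.5, 11.7 and 10.9 CPM (log2 fold change 0.92, SE 0.13; edgeR, adjusted p = 2.57e-05). Of its exon bases, 26.6% are also exon of the gene model *Gm45338* on the same strand, which had 1000 counts, so its value is uncertain. *Ifi204*, a DNA sensor of the p200 family, rose by 0.50 (SE 0.10). *Ifi44* rose by 0.49 (SE 0.14), but not without WT 1 (0.35) or cKO 1 (0.31), and *Xaf1* overlapped at -0.02 (SE 0.20).

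Interferon-stimulated genes outside the group also rose more often than they fell. Of 80 listed, 65 were tested, 38 rose, 23 of these at least 2-fold, 4 fell and 23 did neither, with a median log2 fold change of 0.52, where 20.1% of all tested genes rose, 6.56% rose at least 2-fold and 19.2% fell. Of the 57 that reached the level of the filter in every library, 32 rose, 17 of these at least 2-fold, and 4 fell, with a median of 0.51. *Fcgr1*, the high-affinity Fc receptor, which is also on the macrophage list, rose from 0.644, 0.866 and 0.902 CPM to 16.1, 15.4 and 14.6 CPM (log2 fold change 4.25, SE 0.16; edgeR, adjusted p = 3.86e-13). *Samhd1*, a nucleotide hydrolase of myeloid cells, rose from 64.3, 67.9 and 64.8 CPM to 139, 138 and 138 CPM (log2 fold change 1.08, SE 0.05; edgeR, adjusted p = 2.21e-12). *Ifi207*, of the same family as *Ifi204*, rose from 3.58, 3.73 and 2.76 CPM to 22.3, 21.8 and 19.0 CPM (log2 fold change 2.64, SE 0.13; edgeR, adjusted p = 1.07e-11). No library of these 3 genes overlapped with the other group. The genes that fell were *Pml* (log2 fold change -0.33, SE 0.06; edgeR, adjusted p = 0.000374), *Mov10* (-0.36, SE 0.08; edgeR, adjusted p = 0.00209), *Isg20* (-0.33, SE 0.10; edgeR, adjusted p = 0.0126) and the chemokine *Cxcl10*. *Cxcl10* was at 1.58, 1.49 and 2.58 CPM in WT and 0.428, 0.805 and 1.12 CPM in the libraries labelled cKO (log2 fold change -1.25, SE 0.37; edgeR, adjusted p = 0.0117), without overlap, and did not pass without WT 3 (-0.96) or cKO 1 (-0.95).

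The interferon genes varied more between libraries of a group than other genes did. Their median coefficient of variation was 16.3% in WT and 11.1% in the libraries labelled cKO, against 8.59% and 6.99% over all tested genes. WT 1 was the lowest WT library for 33 of the 47 tested members and WT 3 the highest for 31, and cKO 1 was the highest of its group for 32 and cKO 3 the lowest for 30. These counts are 63.8% to 70.2% of the members, and over all tested genes the same places were taken by 31.5%, 36.8%, 32.3% and 33.2%. The median deviation of the members from their mean over the 6 libraries was -0.48, -0.22 and -0.08 on the log2 scale in WT and 0.51, 0.18 and 0.17 in the libraries labelled cKO. The members therefore shared their lowest and highest library inside each group more often than other genes did, while the medians of cKO 2 and cKO 3 were nearly equal. The summed level of the macrophage list also had WT 1 lowest and WT 3 highest, at 1273, 1381 and 1444 CPM. In the other group it was 6805, 7073 and 7127 CPM, with cKO 1 lowest. *Lyz2* was the largest part of this sum, at 921 CPM in WT 1 and 4391 CPM in cKO 1. A relation between the order of this list and that of the members was not tested.

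Some members share exon bases with other genes, and the strand setting of the counting is not given in the sources used here, so their values are uncertain. *Ifitm3* shares 60.9% of its exon bases with an antisense gene model that had 2 counts over all libraries, and *Irf1* shares 31.4% with the antisense *Gm17334*, which had 278. The overlaps of *Irf5* and *Irf7* are smaller but with antisense genes of many counts. *Irf5*, with 3882 counts, shares 5.8% with *Tnpo3*, which had 24946. *Irf7*, with 5147 counts, shares 1.67% with *Phrf1*, which had 21347. *Igtp* and *Irgm2* share 162 exon bases on the same strand. The Oas, Ifitm, Gbp and Irg genes are also families of similar sequence.

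Neighbouring members did not always move together (coordinates of the deposited table, GRCm39). Of all tested genes, 20.1% rose and 19.2% fell, and the small counts of each span are to be read beside these shares. On chr5:120868398-121045584, *Oas2*, *Oas3* and *Oas1a* rose, and of the 3 other tested genes between them *Oas1g* rose and *Oas1c* and *Oas1b* did not pass. *Oas1g* entered the test through the libraries labelled cKO alone, so its rise supports nothing by itself. On chr7:140534750-140846394, *Ifitm2*, *Ifitm1*, *Ifitm3* and *Irf7* rose, while of 11 other tested genes in the span 2 rose and 9 did not pass. The 2 were *Rnh1* and *Ifitm6*, and *Ifitm6* too entered the test through the libraries labelled cKO alone. On chr19:34528094-34627409, 1 of the 4 Ifit genes rose, and on chr3:142199739-142343769, *Gbp5* and *Gbp7* rose while *Gbp3* and *Gbp2* did not pass. On chr16:91169671-91362511, *Ifnar2* and *Ifnar1* rose, as did *Il10rb* between them, and *Ifngr2* fell.

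**Figure D3:**
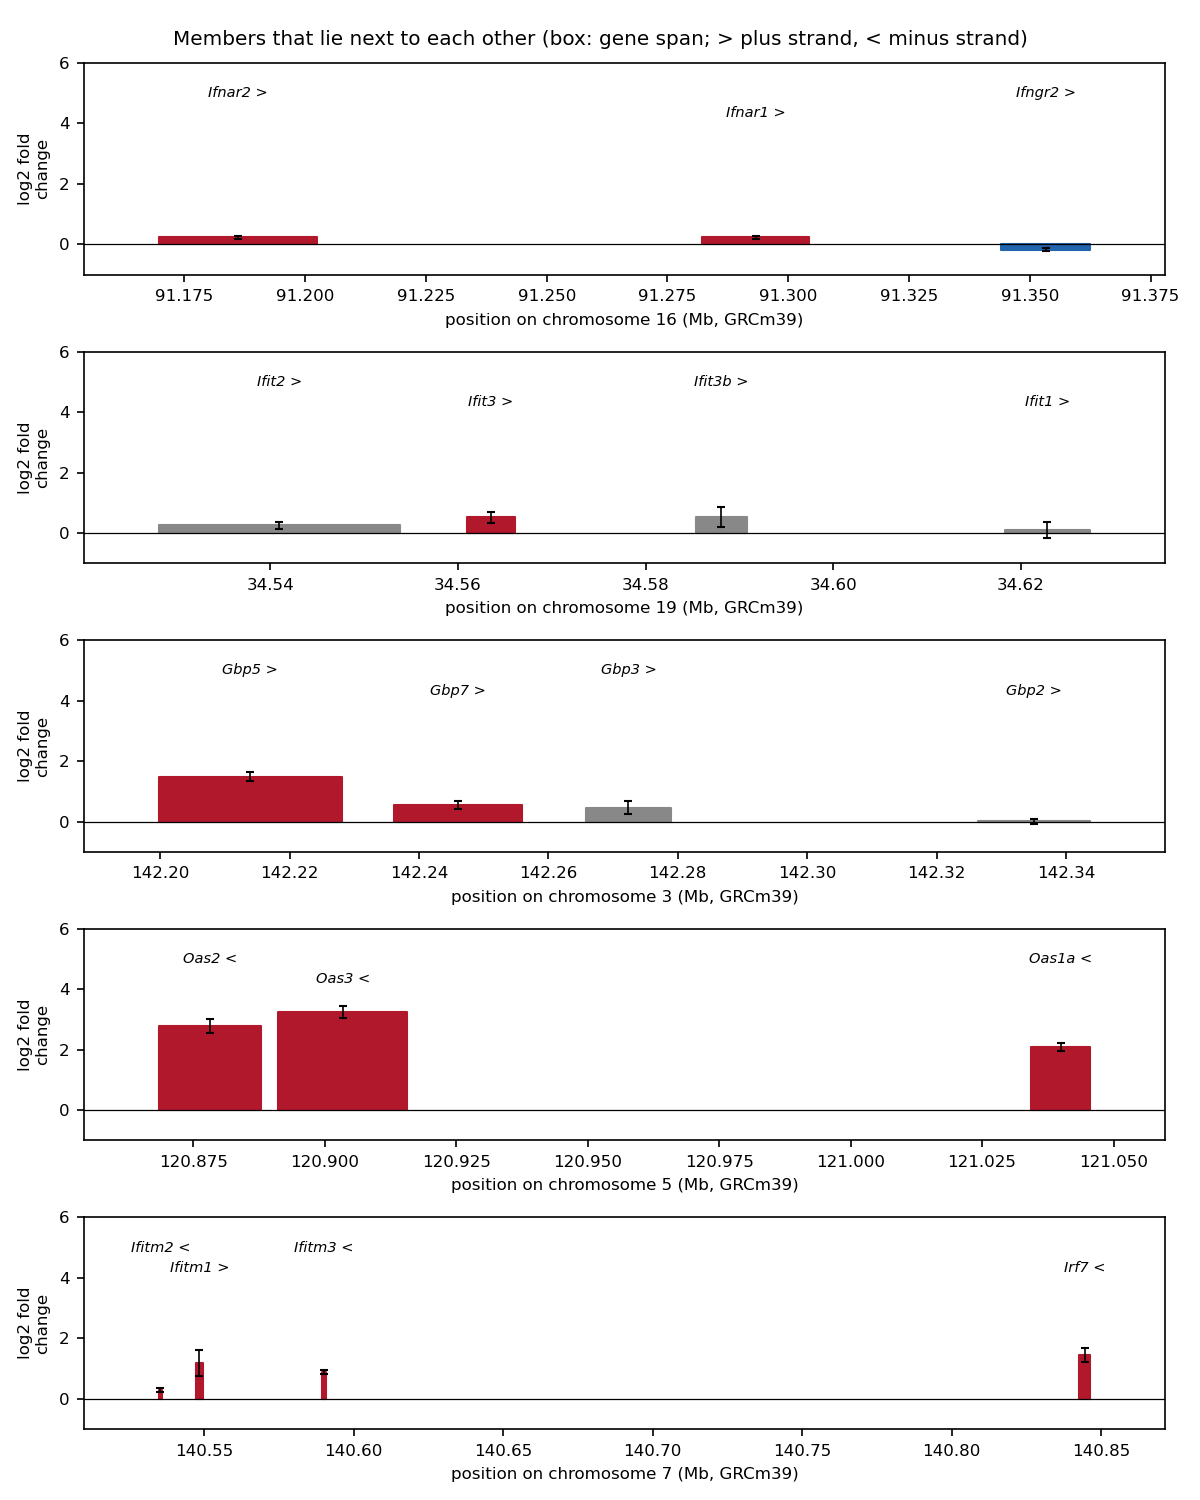
Log2 fold change (vertical axis, libraries labelled cKO over WT, bars of 1 standard error) of interferon genes that lie side by side, each drawn over its span on the chromosome (horizontal axis, Mb). Red boxes rose, blue fell and grey did not pass. The 3 Oas members on chromosome 5 rose at least 2-fold, and the Ifit genes on chromosome 19 are low.

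The promoters were searched for the interferon-stimulated response element, here written GAAANNGAAA, and for the gamma-activated site, TTCNNNGAA, on both strands of windows from 250 bases before to 50 after each start. RefSeq windows (build GRCm38.p6) were at hand for 40 of the 48 members. The response element was found in 21 of the 40, or 52.5%, against 3.99% of the 27025 genes with a window and 3.44% of all 32851 windows. It was found in 15 of 25 members that rose, in 6 of 12 that neither rose nor fell and in 0 of 2 that fell. The gamma site was found in 12 of 40 members, or 30%, against 9.55% of genes and 8.3% of windows, in 10 of 25 that rose, in 1 of 12 that neither rose nor fell and in 1 of 2 that fell. A match describes letters in a window and not a site in use.

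The following promoters show that the same element stands near the start of members that rose and of members that did not. Each is the sequence upstream of the RefSeq start, 5′ to 3′ on the strand of the gene, with the response element or its reverse complement in capitals, and each was placed on GRCm39 by an exact match. *Oas1a* (chr5:121045589-121045708, minus strand), *Oas3* (chr5:120915725-120915844, minus strand) and *Igtp* (chr11:58090262-58090381, plus strand) rose at least 2-fold, and *Isg15* (chr4:156285276-156285395, minus strand) and *Ifit1* (chr19:34618165-34618288, plus strand) did not pass.
Oas1a: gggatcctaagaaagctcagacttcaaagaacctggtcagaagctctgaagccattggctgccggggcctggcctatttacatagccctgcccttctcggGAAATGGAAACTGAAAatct
Oas3: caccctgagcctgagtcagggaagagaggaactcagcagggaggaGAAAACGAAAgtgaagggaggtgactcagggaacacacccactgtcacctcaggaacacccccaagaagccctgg
Igtp: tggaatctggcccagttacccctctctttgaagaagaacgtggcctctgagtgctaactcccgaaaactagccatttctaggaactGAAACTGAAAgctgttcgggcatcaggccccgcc
Isg15: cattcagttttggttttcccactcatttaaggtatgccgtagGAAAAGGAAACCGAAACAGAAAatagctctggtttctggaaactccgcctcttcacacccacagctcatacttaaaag
Ifit1: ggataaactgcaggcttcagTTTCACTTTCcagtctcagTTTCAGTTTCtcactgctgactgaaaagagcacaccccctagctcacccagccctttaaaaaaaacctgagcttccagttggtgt
The elements of *Oas1a* overlap each other, as do the 3 of *Isg15*, while those of *Ifit1* are separate and on the opposite strand.

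Markers of other cells were read for the same libraries, with the most abundant gene taken per kilobase over all 6. The counts of each list are to be read beside the 20.1% of all tested genes that rose and the 19.2% that fell. Of the neutrophil list 4 of 10 were tested and 4 rose, 1 of them a gene that entered the test through the libraries labelled cKO alone, with *Camp* most abundant and *S100a9*, *Ly6g*, *Mpo* and *Retnlg* at 2 counts or fewer. Of the dendritic cell list 3 of 10 were tested and 2 rose, *Itgax* and the member *Bst2*, which was the most abundant, with *Flt3* and *Siglech* at 0 counts in every library. T and NK cell markers and mast cell markers were not tested for lack of counts, with *Cd3e*, *Cd3d*, *Cd3g*, *Cd8a*, *Nkg7*, *Klrb1c*, *Cpa3*, *Mcpt4*, *Tpsb2* and *Fcer1a* at 0, and *Gzmb* and *Kit* most abundant. Of the B cell list 2 of 8 were tested, 0 rose and 1 fell, with *Ebf1* most abundant and *Ms4a1* and *Igkc* at 0.

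The remaining lists were of bone and stroma. Of the osteocyte list 6 were tested, 3 rose and 1 fell, and of the osteoblast list 8 were tested, 2 rose and 4 fell, with *Spp1* most abundant. Of the osteoclast list 6 were tested, 2 rose and 1 fell, with *Ctsk* most abundant and *Calcr* at the floor. Of 10 tested markers of fibroblasts and marrow stroma 3 rose and 5 fell, with *Dcn* most abundant, and of 7 tested chondrocyte markers 5 rose and 2 fell, with *Col2a1* most abundant. Of these rises, 3 were of genes that entered the test through the libraries labelled cKO alone, and 2 rose and 2 fell among the other 4. Of 6 tested endothelial markers 2 rose and 4 fell, 3 of the falls being of genes that entered through the WT libraries alone, with *Vwf* most abundant and *Cldn5* at 0. Of 3 tested adipocyte markers 3 rose, with *Lpl* most abundant and *Plin1* and *Cfd* at 0, of 2 tested muscle markers 0 rose and 1 fell, with *Acta1* most abundant, and of 3 tested erythroid and megakaryocyte markers 1 rose and 1 fell, with *Pf4* most abundant and *Hba-a1*, *Hbb-bs* and *Gp9* at 0. Of these lists, the macrophage list had the largest number of genes that rose at least 2-fold.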

How the data were processed

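Paired-end reads of 150 bp were trimmed by the authors, aligned to GRCm39 with HISAT2 2.0.5 and counted per gene with featureCounts 1.55.0-p3, as the submitters' processing notes state. The methods name a different release of featureCounts. They deposited raw counts per gene, which had not been normalized, with gene lengths and coordinates. From the deposited counts, genes were filtered with filterByExpr, scaled by TMM and compared between WT (n = 3) and libraries labelled cKO (n = 3) with glmQLFit and glmQLFTest of edgeR 4.0.16 in R 4.3.3, with genotype as the only term and Benjamini-Hochberg adjustment over 17146 genes. The standard error is the log2 fold change divided by the square root of F. For CPM, each count was divided by the library's TMM-scaled total and multiplied by 1000000. The biological coefficient of variation was 8.36%. No 2 libraries of a group agreed within sampling noise (chi-square per gene of 4.8 to 13.86), so none was taken as a duplicate, which does not show that they are independent.

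The members and gene lists were chosen with earlier results of these data known. Every member is named. Values in each library were given for the 2 members of each role with the smallest p-values in each direction, the most abundant per kilobase, all receptors and, of each pathway list, up to 3 genes in each direction. Gsdmd, Ifnb1, Irf8, Xist and Ddx3y were always given, and 1 gene that the rule named is not reported here. Library values of Irf3, Irf7, Irf9 and Stat2, the fall of Isg20 and the promoters printed were chosen after their values were seen.

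The 16 alternatives were DESeq2 1.42.0, limma-voom (limma 3.58.1), 3 other scalings, 2 other filters, robust estimation, halved counts, the replicate number as a block, and each library left out. They were extended to the pathway lists after the data were seen. Promoter windows were matched by symbol, and exon overlaps were taken from GENCODE M39 on GRCm39.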

Additional observations from a re-analysis of the deposited data

How the results depend on the processing

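Of the 32 members that rose, 31 were tested under all 16 alternatives and 23 of them rose under all 16. Mx1, tested under 14, rose under each. It entered the main test through the libraries labelled cKO alone, so these repeats add no support. Of the 13 that neither rose nor fell, 12 were tested under all 16 and 9 stayed so, as did Oasl1 under the 15 that tested it. The count that rose ranged from 25 (without cKO 1) to 33, and the median log2 fold change from 0.37 to 0.65, without cKO 1 and without WT 3. With each library left out in turn, 9 to 14 members rose at least 2-fold. The 5 lost without WT 1 were Ifitm1 and Rsad2, which no longer passed, and Bst2, Oasl2 and Igtp, which rose by less than 2-fold. With robust estimation 1 member fell in place of 2, and the cause was not tested. No member reversed its direction past the threshold, and 0 fell at least 2-fold under any alternative. Of the interferon induction genes, 1 fell in place of 2 with library size only, and with each library left out 1 to 2 fell. Of the other interferon-stimulated genes, 31 to 44 rose and 3 to 5 fell.

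Libraries of the same number deviated from their group means with correlations across genes of -0.01 to 0.002, and not every library correlated best with its own number, so the numbers do not pair the libraries. With the replicate block, 30 members rose, 13 at least 2-fold, and 2 fell, with a median of 0.51. No scaling moved the median of all genes by over 0.1. Members near or under 1 CPM, such as Oasl1, Mx1 and Mx2, rest on few counts, and their standard errors of 0.46 to 0.74 limit what can be detected.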
